A study of Homo sapiens with 12 samples.

Results

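The noncoding small nucleolar RNA (snoRNA) host transcripts SNHG1, SNHG3, SNHG5, SNHG6, SNHG7, SNHG8, SNHG12, SNHG15, SNHG16 and GAS5 were followed after a block of transcription. These 10 genes were taken by symbol from a table of 26334 genes, and all 10 were among the 12032 genes kept by a minimum mean of 10 counts per library. The cells were A673, an established human Ewing sarcoma line, here labelled shA673-1c and grown in medium with blasticidin and zeocyn. Every group received 5 µM actinomycin D, an inhibitor of transcription, for 0, 1, 2 or 4 h, so the 0 h libraries are the reference, and no untreated time course was used here. Each time point had 3 replicates, giving 12 libraries of poly(A)-selected RNA. All of them came from 1 line, and its label does not say what the prefix sh stands for.

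A snoRNA host gene carries snoRNAs in its introns. When the transcript is spliced, the excised intron is trimmed to the snoRNA, which then guides the chemical modification of ribosomal RNA or takes part in its cleavage. The spliced exons of a noncoding host have no long reading frame. Once translated, they are known targets of nonsense-mediated decay (NMD), the pathway that removes messages with an early stop codon, and GAS5 is the classic example. Host genes, like ribosomal protein genes, are also known for transcripts that begin with a run of pyrimidines, the 5′ terminal oligopyrimidine start through which growth signals control translation.

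The annotated start sites were searched for such a run. In the RefSeq promoter table (GRCh38.p14), 8 members had an entry. The windows below hold 10 bases before and 20 bases after the annotated start, with the longest run of C and T that begins within the first 5 transcribed bases in capitals. They are shown for the steepest falling member with an entry, a rising member and the member with the least change on the main scaling given below. Others that lie between are shown too.
SNHG12, chr1:28581854-28581883, minus strand: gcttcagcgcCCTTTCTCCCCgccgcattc
SNHG7, chr9:136728165-136728194, minus strand: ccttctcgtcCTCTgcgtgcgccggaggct
SNHG3, chr1:28505933-28505962, plus strand: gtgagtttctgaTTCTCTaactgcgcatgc
SNHG16, chr17:76557754-76557783, plus strand: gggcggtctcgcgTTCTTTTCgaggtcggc
SNHG1, chr11:62855866-62855895, minus strand: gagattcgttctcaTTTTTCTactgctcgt
SNHG5, chr6:85678714-85678743, minus strand: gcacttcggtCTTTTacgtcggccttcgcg
GAS5, chr1:173869026-173869055, minus strand: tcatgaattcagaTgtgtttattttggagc

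The run was longest in SNHG12, at 11 bases. It measured 8 bases in SNHG16, 7 in SNHG1, 6 in SNHG3, 5 in SNHG5, 4 in SNHG7 and 3 in SNHG8. It began at the first transcribed base in SNHG12, SNHG7 and SNHG5, but only at base 3 in SNHG3, 4 in SNHG16 and 5 in SNHG1 and SNHG8. A run of at least 4 bases was present in 6 of the 8 members, against 27.5% of the 27305 promoters in the table and 29.5% of the 9155 tested genes that had one. The RefSeq start of GAS5 showed a run of 1 base, whereas its canonical transcript in GENCODE version 44 begins elsewhere, with a run of 6. The GENCODE transcript of SNHG15, which had no RefSeq entry, had a run of 2 that starts at base 3. SNHG6 had no RefSeq entry either, and its GENCODE start was not searched.
GAS5, first 20 bases of the GENCODE transcript: CTTTTCgaggtaggagtcga
SNHG15, first 20 bases of the GENCODE transcript: caTTaggggctcagcgcgtc

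Over the 8 members with a RefSeq entry, the Spearman rank correlation of the run length with the slope given below was -0.57, a description that takes GAS5 at its RefSeq start. A run of at least 4 bases was also present in 21 of 31 protein-coding snoRNA hosts with an entry and in 8 of 16 other noncoding hosts. These are matches in annotated windows, on the transcribed strand only, and nothing was measured here at the start sites.

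Total counts per library ranged from 9147018 to 11194705. Counts were scaled by edgeR's TMM factors to CPM, that is counts set to a common library size, and edgeR's quasi-likelihood method fitted a straight line in time to each gene, whose slope is the log2 change in 1 h. For a falling gene, -1 divided by the slope is its half-life. There was no spike-in, so each slope is relative to the scaling, and less RNA per cell cannot be told apart from fewer cells. Among markers of the line, STEAP1, PRKCB, CCND1, NR0B1 and FLI1 were detected in each library, at 69 counts or more, and NKX2-2 at 7 or more, while CD99, a usual marker of Ewing sarcoma, was listed at 0 in every library. Markers of blood, epithelial and endothelial cells had at most 6 counts in any library. The short-lived transcripts JUN, IER2 and MYC fell, with slopes of -0.89, -0.84 and -1.12.

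The members differed widely in stability. SNHG12, SNHG7, SNHG15, SNHG3 and SNHG16 fell over the 4 h, SNHG5 and SNHG6 rose relative to the scaling, and the slopes of SNHG1, SNHG8 and GAS5 did not pass the threshold of an adjusted p below 0.05. The range ran from -0.51 log2 per hour for SNHG12 to 0.093 for SNHG5. Of the 10 members 5 fell, beside 32.1% of all tested genes, and 2 rose, beside 30.7%. The median slope was -0.12 for the members and 0.0093 for all tested genes. Scaled to GAPDH and ACTB instead, 8 members fell, beside 64.2% of all tested genes, and 0 rose, beside 0.931%. SNHG5 and SNHG6 then had slopes of -0.045 and -0.051, not past the threshold, and GAS5 fell with a slope of -0.14.

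**Figure D1:**
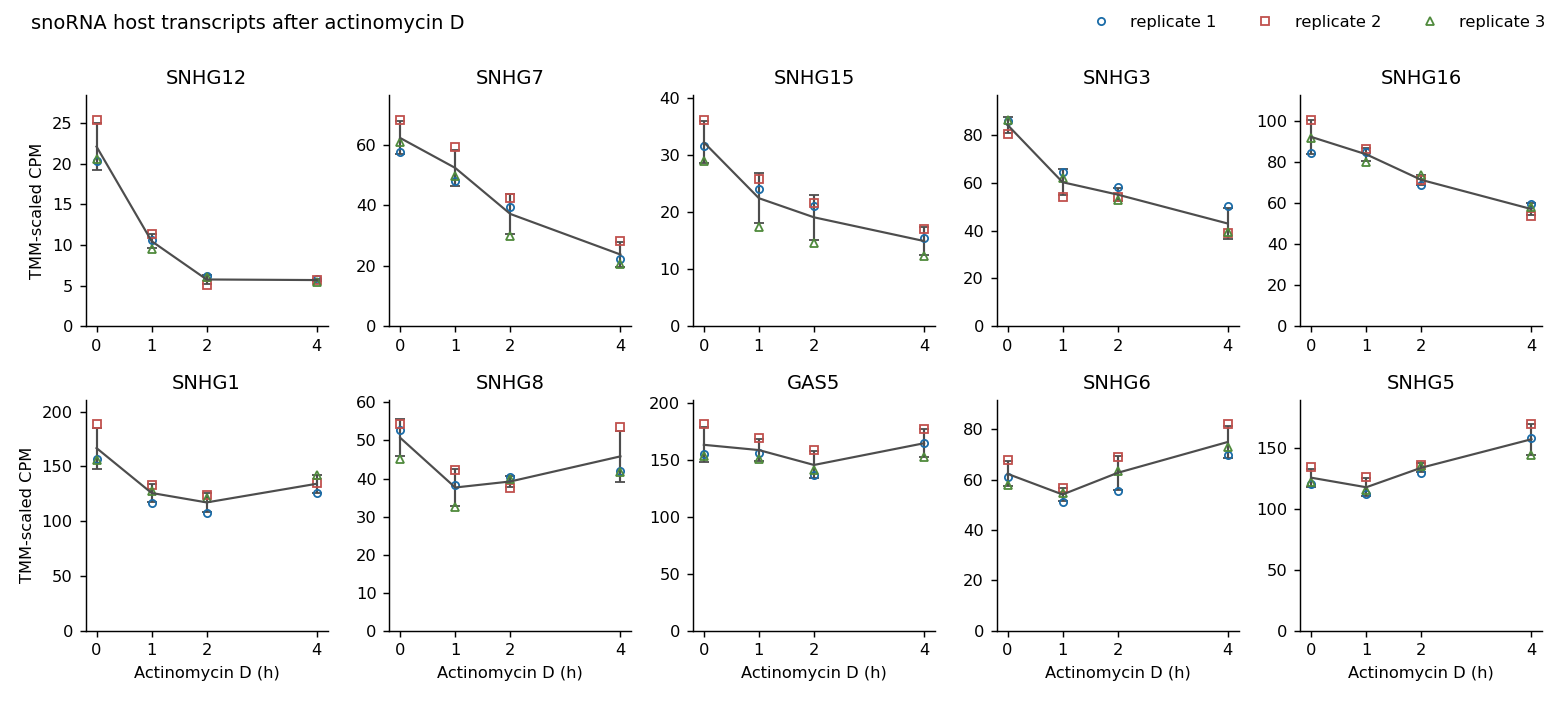
TMM-scaled CPM of the 10 snoRNA host transcripts (y axis, from 0) against hours of actinomycin D (x axis). Open symbols are the 3 replicates, and lines and bars are the mean and SD at each time. SNHG12 drops from 22.1 to 5.67 CPM, and SNHG5 rises from 125 to 157 CPM on this scaling.

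SNHG12, which hosts SNORA16A, SNORA44, SNORA61 and SNORD99, was lost fastest. Its replicates 1, 2 and 3 measured 20.4, 25.4 and 20.5 CPM at 0 h and 10.5, 11.3 and 9.53 CPM at 1 h. At 2 h they measured 6.16, 5.06 and 6.00 CPM, and at 4 h 5.81, 5.71 and 5.49 CPM. Every library at 1, 2 and 4 h lay below every library at 0 h, and the 2 h and 4 h libraries overlapped. The slope was -0.51 (SE 0.073, adjusted p = 1.34e-05, edgeR), and the half-life was 1.95 h with a 95% interval from 1.49 to 2.79 h. This single value averages an uneven course, since the slope was -0.97 with 0, 1 and 2 h only, a half-life of 1.03 h, and -0.28 with 1, 2 and 4 h only, a half-life of 3.60 h.

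SNHG7 had the next steepest slope, at -0.36 (SE 0.034, adjusted p = 1.43e-07, edgeR), and its half-life was 2.80 h with an interval from 2.34 to 3.50 h. It measured 57.7, 68.4 and 61.0 CPM at 0 h, 48.2, 59.3 and 49.8 CPM at 1 h, 39.3, 42.3 and 29.9 CPM at 2 h, and 22.3, 28.4 and 20.6 CPM at 4 h. The groups overlapped at 0 and 1 h, and from 2 h on all libraries lay below those of 0 h. SNHG15, the host of SNORA9, fell from 32.2 ± 3.66 to 14.9 ± 2.47 CPM (SD, n = 3), with a slope of -0.27 and a half-life of 3.73 h (2.76 to 5.77 h). This value too depended on the times, being 2.69 h with 0, 1 and 2 h only and 5.07 h with 1, 2 and 4 h only. Its replicate 3 was the lowest at all 4 time points, at 29.0, 17.4, 14.5 and 12.2 CPM.

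SNHG3, which hosts SNORA73A and SNORA73B, fell from 84.2 ± 3.43 to 42.9 ± 6.53 CPM, with a slope of -0.23 (SE 0.028, adjusted p = 2.06e-06, edgeR) and a half-life of 4.34 h (3.46 to 5.82 h). With 0, 1 and 2 h only the half-life was 3.36 h, and with 1, 2 and 4 h only 5.88 h. The value of SNHG3 is uncertain, because it overlaps exons of RCC1 on the same strand, and RCC1 had 24606 counts over the 12 libraries. SNHG16, the host of SNORD1A, SNORD1B and SNORD1C, fell from 92.1 ± 8.13 to 57.0 ± 3.09 CPM, a slope of -0.18 and a half-life of 5.64 h (4.67 to 7.13 h). Its libraries at 0 and 1 h overlapped, those at 2 h lay lower, and those at 4 h lay lower still, between 53.5 and 59.5 CPM.

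Of the members whose slope was not past the threshold, SNHG1 and SNHG8 were lower at 1 h than at 0 h in every library. SNHG1, the host of SNORD22 and SNORD25 to SNORD31, measured 156, 188 and 156 CPM at 0 h, 117, 133 and 127 at 1 h, 107, 123 and 121 at 2 h, and 126, 135 and 142 at 4 h. Its slope was -0.063 (SE 0.033, adjusted p = 0.110, edgeR). SNHG8, the host of SNORA24, measured 50.7 ± 4.82 CPM at 0 h, 37.6 ± 4.85 at 1 h, 39.2 ± 1.46 at 2 h and 45.8 ± 6.75 at 4 h, and its slope was -0.014 (adjusted p = 0.762, edgeR). Its 4 h libraries overlapped those of 0 h, with replicate 2 at 53.6 CPM above the other two at 42.1 and 41.8 CPM.

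GAS5, which hosts 10 snoRNAs, was the member with the smallest change on the TMM scaling. It measured 156, 182 and 154 CPM at 0 h, 156, 170 and 151 at 1 h, 137, 159 and 142 at 2 h, and 165, 177 and 153 at 4 h. The libraries of every later time overlapped those of 0 h, and replicate 2 was the highest at all 4 times. The slope was 0.0022 (95% interval from -0.044 to 0.048, adjusted p = 0.936, edgeR). Scaled to GAPDH and ACTB it was -0.14 (adjusted p = 6.55e-05, edgeR), steeper than the slopes of SNHG5 and SNHG6.

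SNHG5 and SNHG6 were the 2 members that rose on the TMM scaling, though not when scaled to GAPDH and ACTB, as given above. SNHG5, the host of SNORD50A and SNORD50B, measured 121, 134 and 122 CPM at 0 h, 112, 126 and 115 at 1 h, 129, 136 and 135 at 2 h, and 158, 169 and 144 at 4 h. The 4 h libraries all lay above those of 0 h, and the slope was 0.093 (SE 0.020, adjusted p = 0.000542, edgeR). SNHG6, the host of SNORD87, measured 62.4 ± 5.00 CPM at 0 h, 54.2 ± 2.63 at 1 h, 62.8 ± 6.75 at 2 h and 75.0 ± 6.22 at 4 h, with a slope of 0.086 (SE 0.027, adjusted p = 0.0105, edgeR). The SNHG6 call was lost without the 4 h library of replicate 2 (slope 0.063, adjusted p = 0.0753, edgeR), without all 4 libraries of replicate 3 (0.076, adjusted p = 0.0661, edgeR) and with library totals (0.047, adjusted p = 0.125, edgeR).

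**Figure D2:**
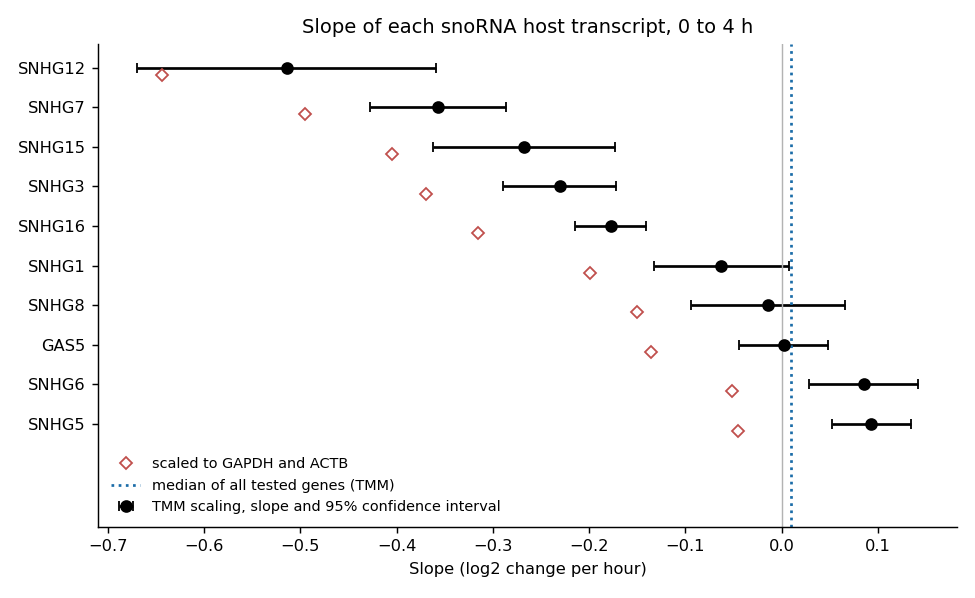
Slope of each member in log2 change per hour (x axis), ordered from the steepest fall. Black points and bars are the TMM-scaled slope with its 95% confidence interval, red diamonds the slope scaled to GAPDH and ACTB, and the dotted line the median of all tested genes. The diamonds lie to the left of the points for every member, and those of SNHG5, SNHG6 and GAS5 lie below 0.

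GAPDH and ACTB themselves had slopes of 0.15 and 0.12 on the TMM scaling. Setting them as the reference moved the median slope of all tested genes by -0.14 log2 per hour. The slopes of all 10 members moved with it, and their order from SNHG12 to SNHG7, SNHG15, SNHG3, SNHG16, SNHG1, SNHG8 and GAS5 was kept, with SNHG6 and SNHG5 highest. Differences between members do not depend on the scaling, because a ratio of 2 transcripts within a library has none.

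Such ratios were compared for the 45 pairs of members with an exact permutation test of the time labels (two-sided, Benjamini-Hochberg over the 45 pairs). In 37 pairs the slopes differed, the smallest p being 2.71e-06, which is the smallest that the 369600 arrangements can give. Of the 9 pairs that are neighbours in the order of slopes, 3 differed. These were SNHG7 and SNHG15 (-0.097 ± 0.026 log2 per hour, SD over 3 replicates, adjusted p = 0.0438, exact permutation test), SNHG16 and SNHG1, and GAS5 and SNHG6.

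The members thus formed an order in which many neighbours were not told apart. SNHG12 and SNHG7 differed by 0.10 ± 0.078 log2 per hour (adjusted p = 0.321, exact permutation test), and SNHG3 differed neither from SNHG15 (adjusted p = 0.541, exact permutation test) nor from SNHG16 (adjusted p = 0.204, exact permutation test) beyond the threshold. SNHG15 and SNHG16 also missed it. Among the 5 members whose slope was not called falling, SNHG8 and GAS5 (adjusted p = 0.707, exact permutation test), SNHG1 and SNHG8, and SNHG1 and GAS5 did not pass. Nor did SNHG5 and SNHG6 (0.0073 ± 0.035 log2 per hour, adjusted p = 0.685, exact permutation test). Each of the 5 falling members differed from each of the other 5.

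**Figure D3:**
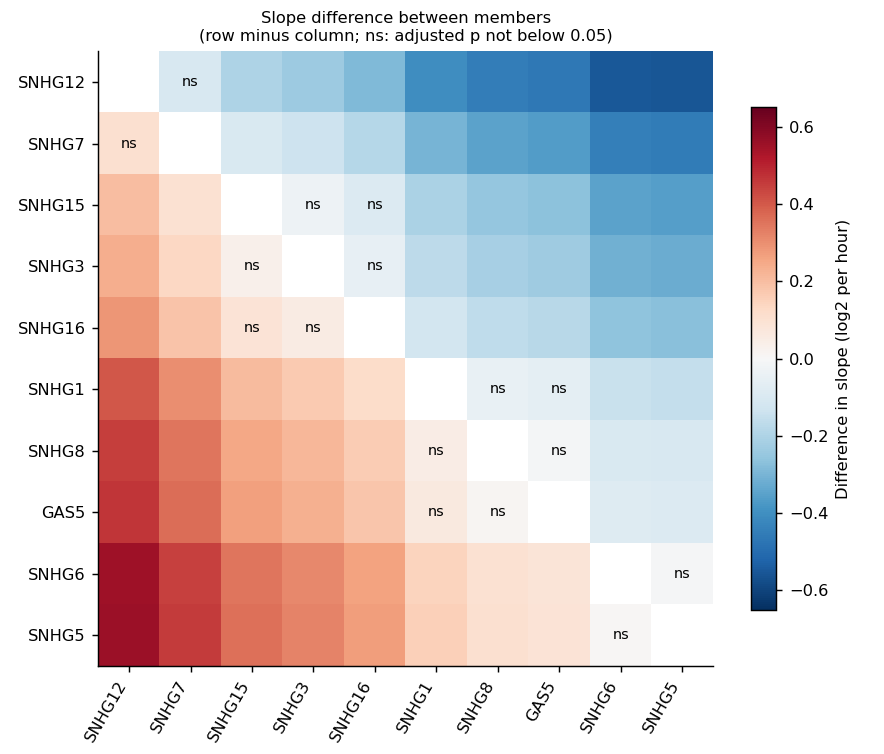
Difference in slope between members in log2 per hour, row minus column, with members ordered from the steepest fall. Blue cells mark a row member that fell faster than the column member, red cells the opposite, and ns marks the 8 pairs with an adjusted p not below 0.05. The ns cells lie close to the diagonal.

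The time courses were not equally straight. With time as 4 groups, SNHG12, SNHG3 and SNHG1 were lower at 1 h than at 0 h, which is 3 of 10 members beside 2.24% of all tested genes, and 0 members were higher, beside 0.349%. SNHG12 fell by 1.08 on the log2 scale in that hour (SE 0.12), SNHG3 by 0.48 (SE 0.094) and SNHG1 by 0.41 (SE 0.085, adjusted p = 0.0208, edgeR). Libraries with the same replicate number deviated together, and with the number as a block 7 members were lower at 1 h, beside 10.5% of all tested genes, and 0 were higher, beside 6.18%. The added ones were SNHG6, SNHG7, SNHG8 and SNHG15, and SNHG5, SNHG16 and GAS5 were not past the threshold at 1 h in either fit.

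Counted by libraries that do not overlap, 6 members lay below 0 h at 1 h (12.7% of all tested genes) and 0 above (6.78%), with SNHG7, SNHG16, SNHG5 and GAS5 overlapping. At 2 h 7 members lay below (24.5%) and 0 above (17.6%). At 4 h 6 lay below (33%) and SNHG5 and SNHG6 above (30.4%).

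From 1 to 2 h, SNHG12, SNHG7 and SNHG16 fell (3 of 10 members, 12.5% of all tested genes) and 0 members rose (3.76%). With the block, SNHG15 and GAS5 fell too, beside 20.7%, and SNHG5 and SNHG6 rose, beside 17%. From 2 to 4 h, SNHG3, SNHG7 and SNHG16 fell (18.3%) and SNHG5 and SNHG6 rose (12%). With the block, 4 fell, beside 25.3%, and 5 rose, also beside 25.3%, with SNHG1, SNHG8 and GAS5 among the rising ones. The rises from 2 to 4 h depended on the TMM scaling. Without the block, 4 members fell and 0 rose when scaled to GAPDH and ACTB, and 3 fell and 0 rose with library totals. Shares of all tested genes on those scalings are not given for this interval. In the main fit, SNHG12 changed by -0.019 (SE 0.15) in the last interval, so its fall was measured within the first 2 h.

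A departure from a straight line was found for SNHG12 and SNHG1, 2 of 10 members beside 2.7% of all tested genes, and for 8 members with the block, beside 17.2%. The remaining SNHG7 and SNHG16 did not pass that test, with adjusted p of 0.301 and 0.788 with the block. From 0 to 4 h, 6 members were lower, beside 31.6%, because SNHG1 (-0.31, adjusted p = 0.00583, edgeR) joined the 5 falling members, and SNHG5 and SNHG6 were higher, beside 28.7%. Scaled to GAPDH and ACTB, 9 members were lower at 4 h and 0 higher, and the share of all tested genes is not given for this comparison. Leaving out replicates moved the interval counts, which ran from 0 to 4 at 1 h, from 1 to 3 between 1 and 2 h, from 1 to 5 between 2 and 4 h, and from 0 to 2 for departures from a line.

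The rows of intronic snoRNAs went lower than those of most hosts. The table listed 33 rows named for snoRNAs within the members, and 31 had counts at 0 h. These are low counts of poly(A)-selected RNA, so they are taken as snoRNA sequence in such RNA and not as the level of mature snoRNAs. Mature snoRNAs have no tail, and whether some were carried over was not tested. Summed over all 33 rows, the level was 62.7 ± 3.48 CPM at 0 h, 28.1 ± 4.83 at 1 h, 14.4 ± 2.81 at 2 h and 10.8 ± 1.21 at 4 h (SD, n = 3), so that 17.2% was left at 4 h. The 0 h libraries, with 604 to 747 summed counts, did not overlap those of 1 h, with 251 to 328. The other 222 snoRNA rows of the table stood at 55.1% of their 0 h level at 1 h and at 50.9% at 4 h.

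The snoRNA rows of GAS5 held the most counts, 822 summed at 0 h. At 4 h 100.9% of the GAS5 level was left, and 16.3% of the summed level of its 10 snoRNA rows. The snoRNA rows amounted to 15.8% of the GAS5 counts at 0 h, and to 8.21%, 3.84% and 2.51% at 1, 2 and 4 h. For SNHG1 the share was 13.3% at 0 h, 4.94% at 2 h and 3.35% at 4 h. For SNHG12, whose exons were lost as fast, the shares at 0, 1, 2 and 4 h were 30.7%, 27.2%, 39.1% and 23.6%, and the libraries of 0 and 4 h overlapped, at 27.8% to 32.9% against 18.4% to 28.6%. For SNHG5, 50 summed counts at 0 h became 6 at 1 h and 0 at 4 h, while the host row stood at 125% of its 0 h level on the TMM scaling. For SNHG6, 59 counts at 0 h became 36 at 1 h and 1 at 4 h, with the host row at 120%.

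**Figure D4:**
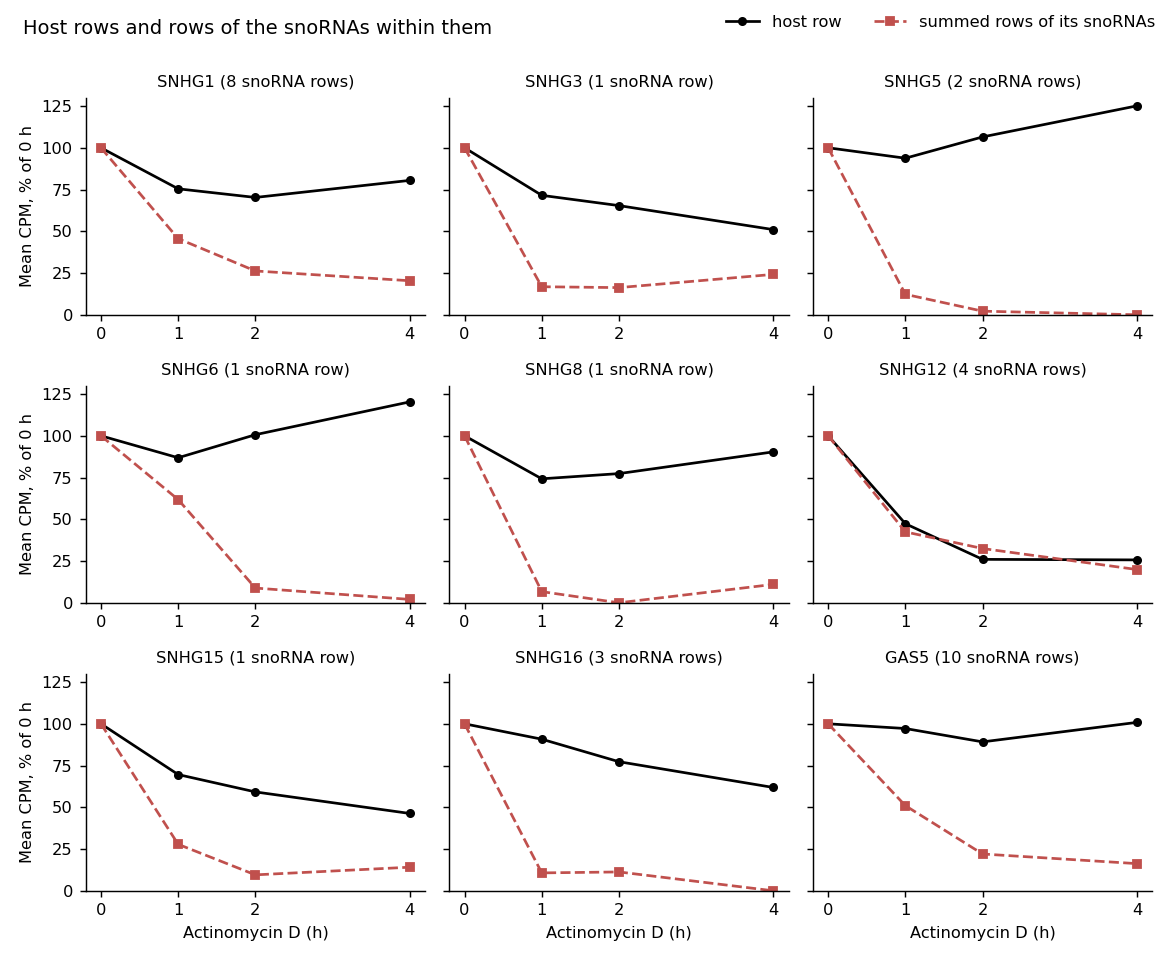
Mean TMM-scaled CPM as a percent of 0 h (y axis) against hours of actinomycin D (x axis), for each host row (black, solid) and the sum of the rows of its snoRNAs (red, dashed). SNHG7, whose listed snoRNA rows were at 0, is not drawn, and the rows of SNHG15 and SNHG16 hold only 22 and 28 summed counts at 0 h. The dashed line lies below the solid one at every later time except for SNHG12, where the lines run close together and cross.

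Guests of 1 host did not fall together. Among the 23 rows with at least 30 summed counts at 0 h, which were thereby picked by their 0 h level, the share left at 1 h ranged from 5.78% to 79.2%. Within GAS5, SNORD44 had 40, 21 and 47 counts at 0 h and 5, 3 and 8 at 1 h. SNORD47 had 62, 76 and 73 counts at 0 h, 43, 48 and 37 at 1 h, and 12, 16 and 9 at 2 h. SNORD44 was thus down to 14.8% at 1 h, when 61.2% of SNORD47 was left, and SNORD47 was down to 18.5% at 2 h.

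SNORD77 and SNORD78 of GAS5 were also low by 1 h, at 5.78% and 9.05%, whereas SNORD76, SNORD79 and SNORD80 stood between 68.6% and 76.5% and overlapped their 0 h libraries. Within SNHG1, 19.1% of SNORD27 was left at 1 h, with 24, 22 and 34 counts at 0 h and 2, 8 and 5 at 1 h. SNORD22, with 57, 57 and 55 counts at 0 h and 30, 28 and 40 at 1 h, kept 57.9% at 1 h and 44.4% at 4 h. These rows share a host transcript and its libraries, and no test was made between them.

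The 5′ ends of 3 box C/D snoRNAs of SNHG1 are shown because they differ in the level left at 1 h, 48.2% for SNORD25, 22.2% for SNORD30 and 19.1% for SNORD27. The first 30 bases of each GENCODE version 44 transcript (GRCh38) are given, with box C, searched for as ATGATGA or GTGATGA on the snoRNA's own strand, in capitals.
SNORD25, chr11:62855564-62855632, minus strand: cttcctATGATGAggaccttttcacagacc
SNORD27, chr11:62855012-62855083, minus strand: actccATGATGAacacaaaatgacaagcat
SNORD30, chr11:62853663-62853732, minus strand: gtttGTGATGActtacatggaatctcgttc

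Among the SNHG1 guests whose sequence was found by name close to the RefSeq position, these have an exact match, and SNORD22, SNORD26 and SNORD28 lacked it. SNORD29 and SNORD31 were not found in this way and were not searched. Of the 10 SNORD genes found in this way at the members 5 had an exact match within the first 30 bases, beside 64.3% of the 314 annotated SNORD transcripts. SNORD87 of SNHG6 was left out of the search, and no guest of GAS5 was found. The guests also differed in how often an annotated host transcript keeps the snoRNA within an exon. Of the GAS5 transcripts that span it, 20 of 87 do so for SNORD47 and 15 of 89 for SNORD76, against 7 of 89 for SNORD44, 4 of 89 for SNORD77 and 1 of 88 for SNORD78. SNORD81, with 17 of 87 such transcripts and 23.1% left at 1 h, did not follow this order. SNORD74, with 0 of 86, had 25 summed counts at 0 h and 32 at 1 h, against the order. SNORD75, with 1 of 89, had 11 and 0. Both fell below the 30 counts at 0 h required next, so the correlation leaves them out. Over the 8 guests of GAS5 with at least 30 counts, that share had a rank correlation with the level left of 0.52 at 1 h and 0.45 at 2 h. Over the 8 guests of SNHG1 the values were 0.60 and 0.45. The 0 h level that picked these rows also sets the level left. The values therefore only describe the picked rows, which share their libraries, and no relation is concluded from them.

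The hosts themselves differ in build. Canonical transcripts in GENCODE version 44 ranged from 498 nt in 4 exons (SNHG16) to 6166 nt in 3 exons (SNHG8), with 12 exons in 768 nt for GAS5. Per kilobase of that transcript, the level at 0 h was highest for GAS5, at 213 ± 20.2 CPM per kb, followed by SNHG16 (185 ± 16.3), SNHG1 (143 ± 16.1) and SNHG5 (95.3 ± 5.62), and lowest for SNHG15, SNHG12 and SNHG8. Annotated GAS5 transcripts alone run from 427 to 3145 nt, so these levels depend on the isoform. On this scale the libraries of GAS5 and SNHG16 overlapped, as did those of SNHG3 and SNHG6, while SNHG16 and SNHG1 did not.

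The first reading frame of the canonical transcript is short in every member, from 3 codons in SNHG15 to 67 in SNHG7. In 9 of the 10, at least 1 exon junction lies more than 50 nt after the first stop codon, a position that NMD is known to respond to. The frame was taken from the first ATG of any context, and the share of other transcripts was not computed. This count is therefore not a trait shown to be particular to the members. Among the falling members SNHG12 had 5 such junctions, SNHG7 and SNHG16 2 each, SNHG15 1 and SNHG3 0. SNHG1 had 7, GAS5 and SNHG5 5 each, and SNHG6 and SNHG8 2 each, and the Spearman rank correlation of this number with the slope was 0.29 over the 10 members, as a description. Across the 10 members, the slope had a Spearman rank correlation of -0.72 with the GC content of the canonical transcript, of -0.38 with its length and of 0.22 with its exons per kb. Over 11213 tested genes the same correlations were 0.27, -0.24 and 0.45, so the sign for GC content was the opposite. SNHG7 had the highest GC content, at 65.9%, and SNHG8 the lowest, at 39.0%, and these correlations over genes that share libraries are descriptions.

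Among the other noncoding snoRNA hosts, 5 of 14 tested genes fell and 4 rose, with a median slope of 0.051. The shares of all tested genes to set beside this and the following lists are 32.1% falling and 30.7% rising, or 64.2% and 0.931% when scaled to GAPDH and ACTB. The falling ones included SNHG20 (-0.18), SNHG21 (-0.18) and SNHG4 (-0.15), and the rising ones DANCR (0.12), LRRC75A-AS1 (0.11) and C6orf48 (0.11), while scaled to GAPDH and ACTB 6 fell and 0 rose. The protein-coding hosts moved mostly one way. Of 38 tested, 30 rose and 1 fell, with a median slope of 0.11, and scaled to GAPDH and ACTB 12 fell and 0 rose. RPS2 (0.18) and RPLP2 (0.17), both ribosomal protein genes, and TNPO2 (0.15), a nuclear import receptor, had the highest slopes, and the falling one was TAF1D (-0.081), a subunit of the RNA polymerase I selectivity factor, whose fall was lost without replicate 2 at 0 h or without replicate 3 at 4 h. Reads of ribosomal protein genes may be split with their pseudogenes.

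**Figure D5:**
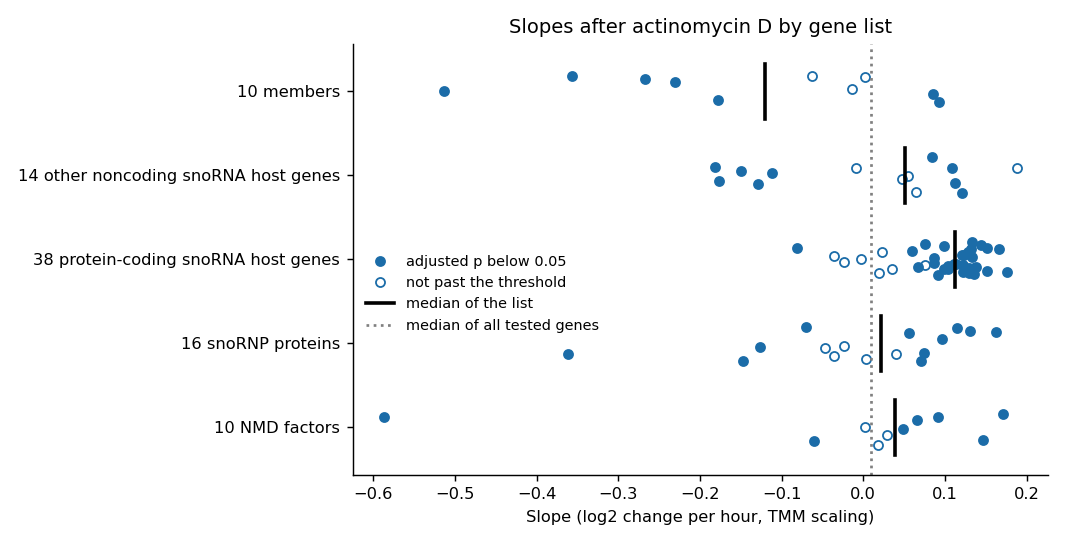
Slopes in log2 change per hour on the TMM scaling (x axis) for the members and 4 related lists, 1 point per tested gene, filled where the adjusted p was below 0.05. Black bars are list medians and the dotted line is the median of all tested genes. The members spread from -0.51 to 0.093, whereas 30 of 38 protein-coding hosts are filled points above 0, of which none remain above 0 and past the threshold when scaled to GAPDH and ACTB.

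Of 16 genes for proteins that build or form snoRNA particles, 4 fell and 7 rose, with a median slope of 0.022, and scaled to GAPDH and ACTB 12 fell and 0 rose. NUFIP1 (-0.36), SHQ1 (-0.15) and NAF1 (-0.13), assembly factors, fell, and PIH1D1 (0.16), NHP2 (0.13) and RUVBL2 (0.12) rose. Of 10 genes for NMD factors, 2 fell and 5 rose, with a median of 0.039, against 8 and 0 on the other scaling. SMG8 (-0.59), part of the complex that restrains the kinase SMG1, had a half-life of 1.70 h, and UPF2, a core factor, fell with a slope of -0.060. UPF3A (0.17), SMG5 (0.15) and UPF1 (0.091), the central helicase of the pathway, rose.

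The mean standardised profile of the 10 members over the 12 libraries was most like those of ZNF708 (Pearson r = 0.94), ASNSD1 (0.94), PAPD5 (0.90), MIR1304 (0.89) and VCPKMT (0.89), values that describe the likeness of genes within the same libraries. The members themselves correlated with this mean from 0.88 for SNHG1 to -0.081 for SNHG5. Between members, log2 CPM correlated with 0.92 for SNHG7 and SNHG16 and with 0.91 for SNHG5 and SNHG6, and SNHG5 correlated with SNHG16 at -0.77. Exons of SNHG8, SNHG12, SNHG6 and SNHG7 overlap genes on the opposite strand, PRSS12, TRNAU1AP, MCMDC2 and DIPK1B, and the strand setting of the counting is not given in the sources used here. TRNAU1AP had 2112 counts over all libraries, PRSS12 1822 and MCMDC2 21.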

How the data were processed

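RNA-Seq was carried out on 12 libraries (TruSeq stranded mRNA, 3 replicates at each of 4 time points) of actinomycin D-treated A673 cells. The values deposited by the authors are raw counts, as whole numbers, for each gene symbol. The submitters' processing notes name FastQC, STAR and hg19; the paper's methods describe, for reads of this kit in general, rRNA removal with STAR, Salmon on the Ensembl GRCh38 transcriptome and tximport, without naming these libraries. Which of these made the counts, and the strand setting, are not given in the sources used here. Groups and replicate numbers were taken from the labels, with 0 columns unmatched. The labels call the replicates biological without saying more, so p-values measure the spread between these samples.

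Genes averaging 10 or more counts were tested (12032) with edgeR 4.0.16 (TMM, glmQLFit, glmQLFTest, R 4.3.3), with time as a number or as 4 groups and Benjamini-Hochberg adjustment over all tested genes. The departure from a line was tested with 2 degrees of freedom. Pairs of members were tested on log2 ratios of counts plus 0.5 by exact permutation with scipy 1.17.1. Scripts were tested on simulated data. Same-numbered libraries deviated together in all 18 pairs (r from 0.285 to 0.596), so the numbers were taken to pair the samples where a block is named. The main fits and the main permutation test used no block, and their p-values ignore this pairing. Alternatives were library totals, DESeq2 1.42.0, limma 3.58.1, GAPDH and ACTB scaling, other filters, fewer times, the block and leaving out libraries.

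The members and lists were chosen with earlier results of these data known. Named genes were all members, the 3 steepest falling and rising genes past the threshold of each list, GAPDH, ACTB, JUN, IER2, MYC and the 5 genes most like the members. The snoRNA rows, marker genes and overlapping genes were named in addition, the rows after their values were seen. Transcript features came from GENCODE version 44 and start sites and snoRNA order from RefSeq (GRCh38.p14), another build than hg19, so no gene coordinates of the count table are given.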

Additional observations from a re-analysis of the deposited data

How the results depend on the processing

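All slopes are relative to the scaling, counts below about 30 summed reads limit the snoRNA rows, and the cause of each change below was not tested. The numbers of falling and rising members, 5 and 2, were the same with DESeq2 size factors, both count filters, the replicate block, DESeq2's test and limma. Scaled to GAPDH and ACTB, 8 members fell and 0 rose (64.2% and 0.931% of all tested genes), the slopes of SNHG5, SNHG6 and GAS5 were -0.045, -0.051 and -0.14, 5 members changed from 0 to 1 h and 1 departed from a line. On that scaling 12 protein-coding hosts, 12 snoRNP genes and 8 NMD genes fell, and 0 of any list rose. With library totals 6 members fell and 1 rose, beside 4704 and 2242 of all tested genes. On the TMM scaling 3859 of all tested genes fell and 3694 rose. With library totals 3 members changed from 2 to 4 h, and GAS5 had a slope of -0.037. Among the lists, 3 protein-coding hosts and 7 snoRNP genes then fell and 3 NMD genes rose. Shares of all tested genes are not given for interval counts on these scalings or for fewer times. Those counts therefore cannot be told apart from a shift of the whole table. With 0, 1 and 2 h only, 0 members rose, GAS5 had a slope of -0.072, 0 other noncoding hosts rose, 1 snoRNP gene and 1 NMD gene fell and 1 NMD gene rose. With 1, 2 and 4 h only, SNHG1 and SNHG8 had slopes of 0.036 and 0.094. SNHG8 then passed the threshold as rising (adjusted p = 0.0464, edgeR), and 3 members rose. At these times 0 other noncoding and 0 protein-coding hosts fell and 1 NMD gene did. Without a count filter the slope of GAS5 was -0.00017.

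With the replicate block, 7 members changed from 0 to 1 h, 7 from 1 to 2 h and 9 from 2 to 4 h, 8 departed from a line, and 3 protein-coding hosts and 7 snoRNP genes fell, and it did not move another count by over 1.5 times. Without 1 replicate or library, 5 to 6 members fell and 1 to 2 rose, and the members changed numbered 0 to 4 from 0 to 1 h, 1 to 3 from 1 to 2 h, 1 to 5 from 2 to 4 h and 7 to 8 from 0 to 4 h, with 0 to 2 off a line. The count from 1 to 2 h was 1 without replicate 2 at 1 h or replicate 3 at 2 h. That from 2 to 4 h was 2 without replicate 1 at 2 h or replicate 2 at 4 h, and 3 without replicate 3 at 4 h. Departures numbered 1 without replicate 1 or 3 at 2 h or replicate 2 at 0 h. The other noncoding hosts that fell numbered 3 to 5 (3 without replicate 1 at 0 h) and those that rose 3 to 5, the protein-coding hosts that fell 0 to 1, the snoRNP genes that fell 3 to 5, and the NMD genes that rose 3 to 5 (3 without replicate 2 at 4 h). SNHG8 ran from -0.059 to 0.012 (0.0074 without replicate 1, 0.0080 without replicate 1 at 0 h, 0.012 without replicate 2 at 0 h). GAS5 ran from -0.017 to 0.020 (-0.0049 without replicate 1, and -0.0043, -0.017 and -0.0039 without replicate 1 at 4 h, replicate 2 at 4 h and replicate 3 at 0 h). On the GAPDH and ACTB scaling GAS5 passed the threshold (-0.14, adjusted p = 6.55e-05, edgeR). SNHG1 passed the threshold without replicate 3 at 4 h (-0.087, adjusted p = 0.0464, edgeR), with library totals (-0.10, adjusted p = 0.0135, edgeR), with 0, 1 and 2 h only (-0.24, adjusted p = 0.00163, edgeR) and on the GAPDH and ACTB scaling (-0.20, adjusted p = 8.45e-05, edgeR), as did SNHG8 on that scaling (-0.15, adjusted p = 0.00152, edgeR) and with 0, 1 and 2 h only (-0.18, adjusted p = 0.0440, edgeR). SNHG5 and SNHG6 missed it with 0, 1 and 2 h only (0.056 and 0.015), and SNHG6 with library totals (0.047). SNHG12 had slopes of -0.97 with 0, 1 and 2 h and -0.28 with 1, 2 and 4 h. The pairs of members that differed numbered 38 with the block, 37 with a pseudocount of 1, 30 with 1, 2 and 4 h, 26 with 0, 1 and 2 h, and 27 to 30 without a replicate.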
